A study of Mus musculus with 3 samples.

Results

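Levels of 10 imprinted genes with known roles in growth were described across the cell types of the aorta-gonad-mesonephros region (AGM), the tissue around the aorta of the mouse embryo in which blood stem cells first form. The genes were taken by symbol from the 27998 genes of the deposited count matrix: Igf2, H19, Dlk1, Meg3, Cdkn1c, Peg3, Mest, Grb10, Igf2r and Plagl1. All 10 were found. The rule names symbols and uses no measured value.

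Imprinted genes are read mainly from 1 parental copy. The copies are told apart by a methylation mark laid down in the egg or sperm, and for many imprinted genes the marked copy is the silent one. Many act on growth: paternally read genes such as Igf2, Dlk1, Peg3, Mest and Plagl1 are mostly linked to more growth, and maternally read genes such as H19, Cdkn1c, Grb10, Igf2r and Meg3 to less. Primordial germ cells, which pass through this region on their way to the gonads, erase the parental marks, and the marks are set anew later in the germ line. The counts used here do not tell the parental copies apart, so every level is the sum of both.

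The study measured RNA in single cells by droplet sequencing (10x Genomics, version 2), in which every captured transcript end carries a molecular tag, so that copies of the tag are counted once (UMI counts). The AGM was dissected from mouse embryos at E10.5 with 28 to 32 somite pairs, and the tissue of several embryos was pooled. There was 1 sample of each of 3 sorted populations: live Ter119- niche cells, endothelial cells (Ter119-, CD31+, VCad+, CD41-, cKit+), and T1-preHSCs, early precursors of haematopoietic stem cells (Ter119-, CD31+, VCad+, CD41low, cKit+). No strain, transgene or treatment is given in the labels, and each population was split over 2 lanes as technical replicates. The deposited matrix joins all cells, and their barcodes carry suffixes 1 to 8, called libraries 1 to 8 here. Nothing in the files used here ties a suffix to a population or a lane, so the matrix counts as 1 sample. Cell types were compared without a test and with no p-value, and every interval covers counting error at 95% only.

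Of 9492 barcodes, 8916 were kept, with a median of 7454 UMIs a cell. Libraries 1 to 6 held between 1083 and 1738 kept cells, and libraries 7 and 8 held 97 and 154. Only 54 of 9438 barcode sequences occurred in more than 1 library. Clusters formed without the 10 genes were named from marker lists, and 8423 cells fell into 22 classes; each class name means cells like that type. The classes compared most are endothelium (1947 cells, of which 1837 were in libraries 5 and 6), pre-HSC-like cells (266 cells, of which 79 were in libraries 5 and 6 and 177 in libraries 7 and 8), germ cell-like cells (231 cells, of which 213 were in libraries 5 and 6) and mesenchyme (1807 cells in 3 classes, of which 1784 were in libraries 1 to 4). In the levels over the 22 classes, mesenchyme is the largest of these 3 classes (1562 cells), and in the comparisons with endothelium and germ cells it is the sum of all 3. All 14 endothelial markers reached 20 CPM (counts per 1e6 UMIs of the class) in endothelium, and so did 13 of 14 germ cell markers in germ cells, 14 of 16 pre-HSC markers in pre-HSC-like cells and 11 of 15 mesenchymal markers in mesenchyme. The cluster of pre-HSC-like cells also had all 14 endothelial markers raised over the other clusters. The names arterial and venous come from comparing the 2 endothelial clusters with each other. There, 3 of 12 arterial markers were raised in one and 3 of 10 venous markers in the other. Against all clusters, the arterial one had 5 of 12 arterial and 6 of 10 venous markers raised, and its top genes included Emcn and Aplnr of the venous list. Arterial therefore means only the more arterial of these 2 clusters wherever it is used below. Macrophages, granulocyte-monocyte progenitors and germ cells gave a view of free RNA: Igf2 stood at 10.3, 7.79 and 4.66 CPM there, against 694 CPM over all kept cells. Megakaryocytes held 33.5 CPM. Libraries 5 and 6 held 0 macrophages and 1 granulocyte-monocyte progenitor. For these libraries the view came from the germ cells themselves, so it is no separate gauge for that class.

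Igf2 (chr7:142650766-142666816, minus strand, GRCm38, GENCODE M21) and H19 (chr7:142575529-142578143, minus strand) are neighbours, as are Dlk1 (chr12:109452823-109463336, plus strand) and Meg3 (chr12:109541001-109571726, plus strand). Cdkn1c (chr7:143458339-143461050, minus strand) and Peg3 (chr7:6703892-6730431, minus strand) lie on the same chromosome as Igf2. The other 4 genes are Mest (chr6:30723547-30748465, plus strand), Grb10 (chr11:11930508-12038683, minus strand), Igf2r (chr17:12682406-12769664, minus strand) and Plagl1 (chr10:13060504-13131694, plus strand). Igf2 overlaps the antisense gene Igf2os, Igf2r overlaps the antisense RNA Airn, the end of Mest overlaps Copg2 on the other strand, and the end of Meg3 overlaps Gm26906 on the other strand. The sources used here do not say how reads in these overlaps were assigned.

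RefSeq start windows (GRCm38.p6, 250 bases before to 50 bases after a start) were at hand for 8 of the 10 genes, 15 windows in all. Sequence before 3 starts is shown because these genes carry the results: Dlk1 and Meg3 are neighbours that came apart in endothelium and germ cells, and Igf2 tracked H19. The stretch between the divergent starts of Peg3 and Usp29 is shown because Usp29 was the gene most like Peg3 over the classes. The last line holds the only copy found of GGGGCCCC, in capitals, a palindrome found in sites described for the zinc finger protein PLAGL1. It lies beside the Peg3 start, in the first exon of Usp29. All are written 5′ to 3′ on the strand of Dlk1, Meg3, Igf2 or Peg3.
Dlk1, chr12:109452573-109452822, plus strand: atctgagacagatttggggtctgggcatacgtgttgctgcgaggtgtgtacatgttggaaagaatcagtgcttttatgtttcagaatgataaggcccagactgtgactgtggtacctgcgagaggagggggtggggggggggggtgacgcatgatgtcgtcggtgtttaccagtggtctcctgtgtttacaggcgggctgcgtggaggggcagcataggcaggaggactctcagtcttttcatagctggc
Meg3, chr12:109540746-109540995, plus strand: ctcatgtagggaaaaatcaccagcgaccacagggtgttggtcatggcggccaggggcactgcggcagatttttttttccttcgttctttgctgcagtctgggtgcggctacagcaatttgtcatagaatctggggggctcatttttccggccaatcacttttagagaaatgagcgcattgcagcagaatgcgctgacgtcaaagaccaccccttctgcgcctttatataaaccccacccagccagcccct
Igf2, chr7:142657497-142657746, minus strand: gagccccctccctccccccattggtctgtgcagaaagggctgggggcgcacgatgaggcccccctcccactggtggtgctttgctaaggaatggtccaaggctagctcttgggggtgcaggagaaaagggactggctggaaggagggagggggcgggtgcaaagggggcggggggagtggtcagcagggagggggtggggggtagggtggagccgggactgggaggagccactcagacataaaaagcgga
Peg3 to Usp29, chr7:6730432-6730577, minus strand: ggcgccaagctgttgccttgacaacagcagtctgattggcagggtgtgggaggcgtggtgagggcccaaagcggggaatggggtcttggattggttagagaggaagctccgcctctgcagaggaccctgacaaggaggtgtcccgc
Peg3 motif, chr7:6730602-6730631, minus strand: gactctgcttgGGGGCCCCtaacactgact
GGGGCCCC was searched on both strands at once, as it is its own reverse complement. It stood in 1 of the 15 windows of these genes and in 1.08% of all 32851 windows. CpG sites, the letters that carry imprint methylation, numbered 9 in the Dlk1 window, 13 in the Meg3 window, 7 in the Igf2 window and 13 in the Peg3 window whose sequences are shown in part. The Igf2 windows not shown held 24, 14 and 2. Whether any window carries an imprint mark was not examined. Over the 15 windows they ran from 1 (the second Meg3 window) to 45 (a Grb10 window), and the median over all windows was 7. A match of letters describes the window and shows no binding.

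Across the 22 classes, the genes differed in where they were highest. Igf2, H19, Dlk1, Meg3, Peg3, Mest and Igf2r were lower in each of the 5 classes of the nervous system than in mesenchyme, while Grb10, Cdkn1c and Plagl1 were higher in at least 1 of them. Smooth muscle-like cells (48 cells) led for Igf2, H19, Peg3 and Igf2r, myotome-like cells (154 cells) for Meg3 and Cdkn1c, endothelium for Mest and Plagl1, mesenchyme for Dlk1, and neural crest and glia for Grb10. In macrophages and granulocyte-monocyte progenitors no gene passed 35.2 CPM. Only 5 of the 22 classes held Plagl1 at 50 CPM or more, and 11 held Igf2r at that level, against 19 for each of Meg3, Mest and Grb10.

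**Figure D1:**
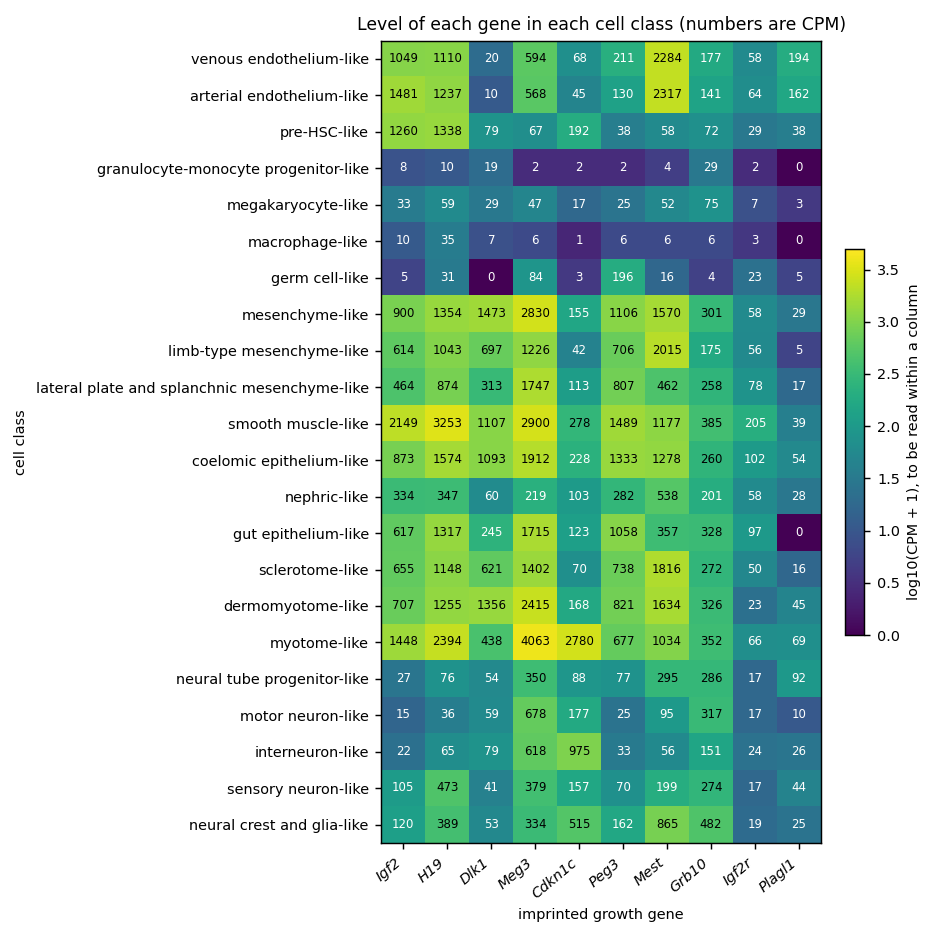
Rows are the 22 cell classes and columns the 10 genes; each number is the level (CPM) in the class sum, and colour is log10(CPM + 1). Levels should be compared within a column, since each gene's 3′ end is captured with its own efficiency; Dlk1 runs from 1473 CPM in mesenchyme to 0 in germ cells.

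IGF2 is a growth factor of the fetus, and H19 is a long non-coding RNA read from the same locus. Igf2 was 2149 CPM (interval 2005 to 2300) in smooth muscle-like cells, 1481 CPM in arterial endothelium and 1448 CPM in myotome. The last pair did not differ beyond their counting intervals. Pre-HSC-like cells followed with 1260.1 CPM and venous endothelium with 1049 CPM, and mesenchyme held 900.3 CPM. Igf2 fell off in the nervous system, with 120.4 CPM in neural crest and glia, 26.8 CPM in neural tube progenitors and 15.3 CPM in motor neurons. H19 was also highest in smooth muscle-like cells (3253 CPM) and lower in the nervous system, with 389 CPM in neural crest and glia and 35.7 CPM in motor neurons. In between, the order differed. Myotome held 2393.5 CPM and coelomic epithelium 1574 CPM. Arterial endothelium, at rank 2 for Igf2, was at rank 8 for H19 (1237 CPM), and venous endothelium moved from rank 5 to rank 10 (1110 CPM).

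The pair moved together. Over the 22 classes, H19 was the gene most like Igf2 among 5416 genes that reached 50 CPM in a class, and Igf2 the gene most like H19, with Pearson's r = 0.976 on the log2(CPM + 10) scale. The classes share libraries and free RNA, so this describes them and was not tested. The next genes for Igf2 were Fkbp10 (r = 0.874), a collagen chaperone, and Col4a2 (r = 0.874), a collagen chain of basement membranes. The ratio of H19 to Igf2 UMIs still varied, with a median of 1.76 over classes. It was lowest in arterial endothelium, at 0.835 (interval 0.802 to 0.869), and was 1.06 in venous endothelium, 1.06 in pre-HSC-like cells, 1.50 in mesenchyme and 1.77 in dermomyotome. In neural crest and glia the ratio reached 3.23 (2.90 to 3.61), in sensory neurons 4.51 (3.46 to 5.94) and in germ cells 6.67 (3.29 to 15.3, from 60 and 9 UMIs).

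**Figure D2:**
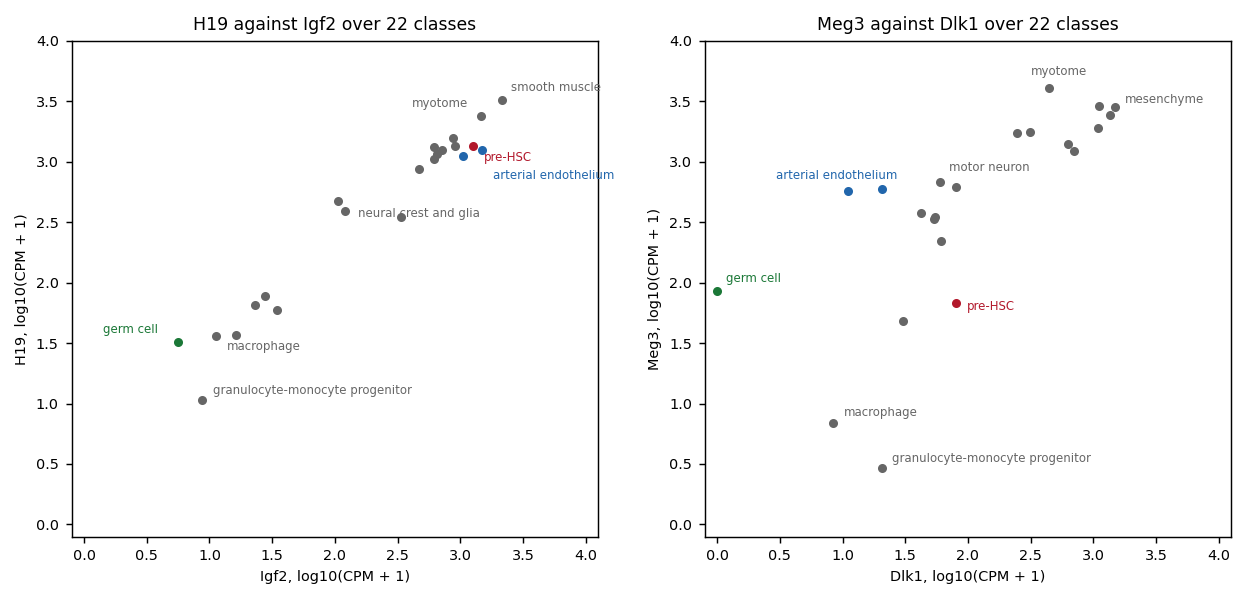
Each point is 1 of 22 classes; axes are log10(CPM + 1) of 2 neighbouring genes, H19 against Igf2 on the left and Meg3 against Dlk1 on the right. H19 and Igf2 lie along a band (r = 0.976), while arterial endothelium and germ cells hold Meg3 with little or no Dlk1 and pre-HSC-like cells hold Meg3 and Dlk1 at a ratio of 0.844.

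IGF2R is the receptor that takes up IGF2 for breakdown. Igf2r was sparse: 205 CPM (163 to 256) in smooth muscle-like cells, 102 CPM in coelomic epithelium and 97.5 CPM in gut epithelium, then 64.1 CPM in arterial endothelium, 57.7 CPM in mesenchyme and 29.3 CPM in pre-HSC-like cells. For 19 of the 21 steps in this order, neighbouring classes overlapped in their intervals. The genes most like Igf2r were Mmp14 (r = 0.887), a membrane protease, and Airn (r = 0.874), the imprinted antisense RNA that overlaps it. GRB10 is an adaptor protein that dampens insulin and IGF receptor signals. Grb10 lay between 141 and 482 CPM in 17 of the 22 classes, with neural crest and glia at the top. Nedd4, whose ubiquitin ligase product binds GRB10, was the gene most like it (r = 0.937). Grb10 was 72.2 CPM in pre-HSC-like cells, 75.3 CPM in megakaryocytes, 29.2 CPM in granulocyte-monocyte progenitors, 5.87 CPM in macrophages and 4.14 CPM in germ cells.

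DLK1 is a transmembrane protein related to Notch ligands, and Meg3 is the maternally read long non-coding RNA of its locus. Dlk1 was 1473 CPM in mesenchyme, 1356 CPM in dermomyotome, 1107 CPM in smooth muscle-like cells, 1093 CPM in coelomic epithelium, 697 CPM in limb-type mesenchyme and 621 CPM in sclerotome. It was 60.4 CPM in the nephric class and between 41.0 and 78.8 CPM in the 5 classes of the nervous system. Endothelium held 17.4 CPM, from 277 UMIs in 136 of 1947 cells. Meg3 was broader, from 4063 CPM in myotome through 2830.2 CPM in mesenchyme to 678 CPM in motor neurons, 594 CPM in venous endothelium and 83.8 CPM in germ cells. The ratio of Meg3 to Dlk1 UMIs was 1.92 in mesenchyme, 1.78 in dermomyotome, 9.27 in myotome, 11.5 in motor neurons, 30.4 in venous endothelium and 56.6 (40.8 to 81.1) in arterial endothelium. In pre-HSC-like cells it was 0.844 (0.705 to 1.01). Dlk1 was most like Usp29 (r = 0.928) and Pcolce (r = 0.909), which enhances collagen processing, and Meg3 was most like Tmem98 (r = 0.915) and Tead2 (r = 0.896), a partner of the Hippo pathway.

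PEG3 is a zinc finger protein, and MEST is a hydrolase of the endoplasmic reticulum. Peg3 was 1489 CPM in smooth muscle-like cells, 1333 CPM in coelomic epithelium and 1106 CPM in mesenchyme, and 211 CPM in venous endothelium, 196 CPM in germ cells and 37.8 CPM in pre-HSC-like cells. Its divergent neighbour Usp29 was the gene most like it (r = 0.926). Mest was 2317 CPM in arterial and 2284 CPM in venous endothelium, which overlapped in their intervals, then 2015 CPM in limb-type mesenchyme and 1816 CPM in sclerotome. It was 865 CPM in neural crest and glia, 295 CPM in neural tube progenitors and 58.4 CPM in pre-HSC-like cells. The genes most like Mest were Serpinh1 (r = 0.915), a collagen chaperone, and Peg10 (r = 0.896), another imprinted gene. PLAGL1 is a zinc finger transcription factor. Plagl1 was 194 CPM in venous endothelium, 162 CPM in arterial endothelium, 91.6 CPM in neural tube progenitors, 68.7 CPM in myotome and 53.9 CPM in coelomic epithelium, and every other class was under 50 CPM. Its likeness to any gene was the weakest of the 10 genes, with Rilpl1 at r = 0.759.

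CDKN1C (p57) blocks cyclin-dependent kinases and holds cells out of the cycle. Cdkn1c was 2780 CPM in myotome (2691 to 2870), 975 CPM in interneurons and 515 CPM in neural crest and glia, then 278 CPM in smooth muscle-like cells, 228 CPM in coelomic epithelium and 192 CPM in pre-HSC-like cells. Neighbours from smooth muscle-like cells down to neural tube progenitors (88.4 CPM) overlapped in their intervals. It varied between libraries. In the 3 mesenchymal classes together Cdkn1c was 189 CPM in library 1, 146 in library 2, 119 in library 3 and 103 in library 4, and library 1 was also the highest in dermomyotome, myotome, interneurons and neural tube progenitors.

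Germ cells held Peg3 at the level of endothelium and little of the other genes, with Meg3 at 83.8 CPM and each of the rest under 50 CPM. Against endothelium, which shares libraries 5 and 6 with them, 8 of the 9 genes with at least 50 CPM in either class were called lower and none higher, where a call means at least 1 log2 unit in the class sums and the same sign in each library with 20 cells of both classes. Over all 3211 genes compared, 24% were called lower and 9.5% higher. Of the 9 genes, only Peg3 and Meg3 reached 50 CPM in germ cells. Each other gene entered through endothelium and could only be called lower. The median log2 ratio was -3.66 for the 9 genes, -3.17 with Dlk1 added and -0.16 for all genes compared. Igf2 was 6.28 CPM in library 5 and 4.19 CPM in library 6 in germ cells, against 1141 CPM in endothelium in each of these libraries, a 246-fold lower sum (130 to 538). Mest was 18.8 and 14.7 CPM against 2288 and 2308 CPM, 143-fold lower (101 to 210). H19 was 32.6 and 32.5 CPM against 1107 and 1166 CPM, 36.7-fold lower (28.5 to 48.1). All germ cell values lay under all endothelial values for these 3 genes.

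Among genes of lower level in endothelium, Plagl1 was 4.66 CPM in germ cells against 187 CPM (40.1-fold lower), Grb10 was 4.14 against 169 CPM (40.9-fold lower) and Cdkn1c was 3.10 against 63.1 CPM (20.3-fold lower, from 6 UMIs). Meg3 was lower by less, at 80.3 and 89.0 CPM against 574 and 591 CPM in libraries 5 and 6 (7.01-fold lower, 6.01 to 8.24), and Igf2r was 22.8 against 59.1 CPM (2.60-fold lower). Dlk1 had no UMI in 231 germ cells, and with 17.4 CPM in endothelium it was under the level for a comparison there.

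Peg3 was the exception. It was 203 and 198 CPM in germ cells and 203 and 185 CPM in endothelium of libraries 5 and 6, a log2 ratio of 0.02 over the sums, and the fold interval of 0.907 to 1.13 included 1. After each cell was thinned to 3000 UMIs, 39.1% of germ cells (32.7 to 45.8) and 36.6% of endothelial cells (34.4 to 38.8) held a Peg3 UMI, and without thinning 71.4% and 60.1%, at median depths of 8197 and 7629 UMIs. The share in macrophages, at 10299 UMIs, was 1.61% thinned and 6.45% unthinned, but no macrophage was in libraries 5 and 6. By the same thinned measure, 21.3% of germ cells held Meg3 (69.3% of endothelial cells), 8.89% held H19 (91.0%), 5.33% held Mest (99.4%), 0.444% held Igf2 (92.2%) and 0 of 225 held Dlk1, which allows up to 1.33%. The difference between germ cells and endothelium ran from 1.01-fold for Peg3 to 246-fold for Igf2, and the part of free RNA in the germ cell levels was not tested. Usp29, which starts beside Peg3, was 4.66 CPM in germ cells and 12.5 CPM in endothelium.

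Against mesenchyme, 9 of 9 genes were called lower in germ cells, where the background was 20.8% lower and 8.75% higher over 3131 genes. Of these 9, only Peg3 and Meg3 reached 50 CPM in germ cells. Each other gene entered through mesenchyme and could only be called lower. The median log2 ratio was -4.78 (-4.57 with Plagl1, which was under the level for a comparison) against -0.19 for all genes compared. No library held 20 cells of both classes, so the library and the class cannot be told apart here. Dlk1 was at least 856-fold lower, taking 3 UMIs over the class as the limit of a count of 0, and Igf2 was 182-fold lower (95.7 to 398). Peg3 was 5.31-fold lower in this comparison, 196 against 1039 CPM. Igf2r was close to the limit with a log2 ratio of -1.05 and was not called under TMM scaling (-0.90), a looser cell filter (-0.95), a finer clustering (-0.94) or a per-cell marker gate (-0.91). The lists of related genes were compared with endothelium, where 24% of all 3211 genes were called lower and 9.5% higher. Of 58 other imprinted genes in the matrix, 17 could be compared with endothelium and 9 were lower and 2 higher. Phlda2, a placental growth regulator, was 768 CPM in germ cells and 0.251 CPM in endothelium, and Snrpn, named here after its value was seen, was 111 CPM and the other gene called higher. Gnas, which encodes a G protein subunit, was 19.7 against 527 CPM. Of 20 genes of imprint upkeep and erasure, 10 could be compared, with 2 higher and 2 lower. The lower ones were no more frequent than among all genes, so the names below describe single genes and not the list. Dppa3, which protects and resets methylation in early germ cells, was 1300.2 CPM against 0.314 CPM and Tet1, an enzyme that oxidises methylcytosine, 61.1 against 10.4 CPM. Dppa3 was also on the marker list that named the germ cells, so its higher level is no separate result. Uhrf1, which brings the maintenance methylase to DNA, was 6.73 against 102 CPM and the methylase gene Dnmt3a 21.7 against 59.5 CPM. All 5 IGF signalling partners compared were lower, led by Igfbp4, a binding protein of the IGFs (5.69 against 1054 CPM). Only Igf2bp1 among them reached 50 CPM in germ cells (103 CPM), so the others could only be called lower.

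**Figure D3:**
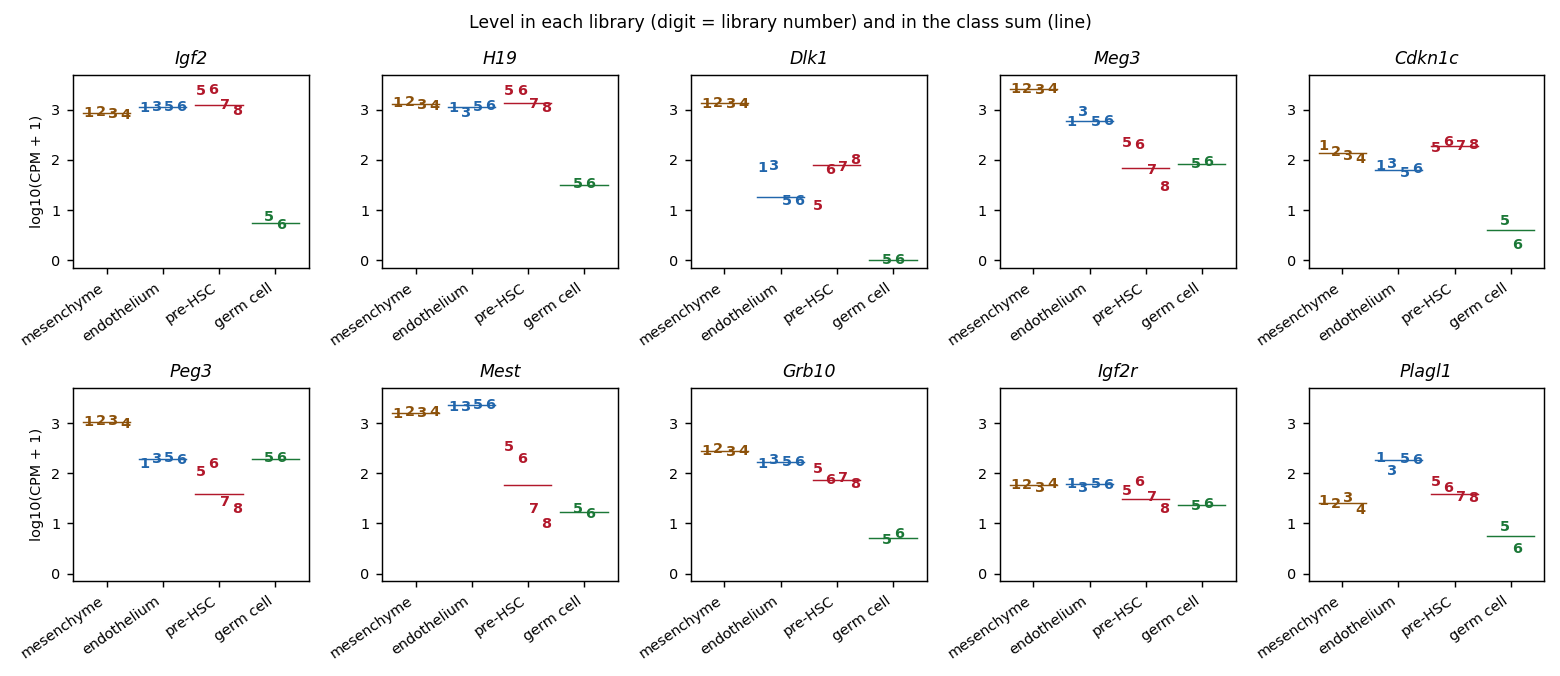
Each panel is 1 gene; digits mark the library number at its log10(CPM + 1) and lines the class sum, for mesenchyme, endothelium, pre-HSC-like and germ cell-like cells in libraries with 20 or more cells of the class. Germ cells lie lowest for every gene but Meg3, Peg3, Mest and Igf2r, where a pre-HSC-like library lies as low or lower, and libraries 5 and 6 of the pre-HSC-like cells lie apart from 7 and 8.

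Endothelium and mesenchyme both held Igf2, H19 and Mest but differed in Dlk1, Meg3, Peg3, Cdkn1c and Plagl1. Of the 10 genes, 1 was called higher and 4 lower in endothelium, against 9.46% higher and 5.29% lower among 3215 genes, and the median log2 ratio was -0.44 against -0.03. Dlk1 was 1319, 1372, 1312 and 1311 CPM in mesenchyme of libraries 1 to 4. In endothelium it was 69.3 and 76.0 CPM in libraries 1 and 3, and 14.1 and 14.0 CPM in libraries 5 and 6. The groups did not overlap, and the sums differed 76.4-fold (67.9 to 86.4), a log2 ratio of -5.61 that sets endothelium mostly of libraries 5 and 6 against mesenchyme of libraries 1 to 4. Within the libraries with 20 cells of both classes the difference was smaller, with log2 ratios of -4.07 in library 1 and -3.94 in library 3. Libraries 1 to 4 held 1784 of the 1807 mesenchymal cells, and libraries 5 and 6 held 23. The 24 endothelial cells with 3 or more Dlk1 UMIs had 129 CPM of the summed 15 mesenchymal markers, the 1811 without one had 25.8 CPM, and mesenchyme had 972 CPM. The part of mesenchymal RNA in endothelial Dlk1 was not tested.

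Peg3 was 155, 195, 203 and 185 CPM in endothelium of libraries 1, 3, 5 and 6 and between 967 and 1097 CPM in mesenchyme of libraries 1 to 4, 5.38-fold lower in endothelium (5.17 to 5.59). Meg3 was 571, 911, 574 and 591 CPM against 2504 to 2623 CPM, 4.36-fold lower. Neither gene's groups overlapped. Within libraries 1 and 3 the log2 ratio of Meg3 was -2.18 and -1.45, against -2.11 over the sums. Plagl1 went the other way. It was 198, 109, 192 and 185 CPM in endothelium and 27.5, 23.2, 31.6 and 17.8 CPM in mesenchyme, 7.53-fold higher in endothelium (6.71 to 8.47). Its log2 ratio was 2.47 in library 1 and 1.51 in library 3, against 2.50 over the sums. At 3000 UMIs a cell, 42.6% of endothelial against 7.17% of mesenchymal cells held a Plagl1 UMI (72.6% and 12.7% unthinned, at medians of 7629 and 6646 UMIs).

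Cdkn1c was 63.1 CPM in endothelium and 137 CPM in mesenchyme, a log2 ratio of -1.01 that was not called under 11 of 21 alternatives (-0.79 to -0.98) and was -1.22 in library 1 and -0.50 in library 3. Not called were Igf2 (1146 against 847 CPM, log2 ratio 0.43), H19 (1139 against 1295 CPM, -0.18), Mest (2291 against 1606 CPM, 0.51), Grb10 (169 against 281 CPM, -0.70) and Igf2r (59.1 against 57.9 CPM, 0.03). Mest was 1.43-fold higher in endothelium (1.40 to 1.45), short of the limit for a call. Scaling by trimmed means (TMM) shifted all log2 ratios here by 0.17, those of germ cells against mesenchyme by 0.19 and those of interneurons against progenitors by 0.12. Among other imprinted genes, Cd81 (728 against 253 CPM) and Pon2 (112 against 12.7 CPM) were higher and Nnat (82.5 against 528 CPM) and Usp29 (12.5 against 70.9 CPM) lower in endothelium, with 12 of 16 not called. Igfbp5, another IGF binding protein, was the only one called of 7 IGF signalling partners (8.47 against 156 CPM). None of 8 imprint upkeep genes was called. Over all 3215 genes, 9.46% were called higher and 5.29% lower.

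Pre-HSC-like cells held Igf2 and H19 at levels near or above those of endothelium, while Mest, Meg3, Peg3, Plagl1 and Grb10 were lower and Cdkn1c was higher. Of the 10 genes, 1 was called higher and 5 lower, against 4.88% higher and 8.45% lower among 3114 genes, with a median log2 ratio of -0.97 against -0.07. Mest was 333 and 193 CPM in pre-HSC-like cells of libraries 5 and 6 and 18.9 and 8.62 CPM in libraries 7 and 8, against 2288 and 2308 CPM in endothelium of libraries 5 and 6. The log2 ratio was -2.75 in library 5 and -3.51 in library 6, and -5.07 over the sums (39.2-fold, 34.1 to 45.3). Meg3 was 216, 197, 62.3 and 28.2 CPM in libraries 5 to 8, against 574 and 591 CPM in endothelium. Plagl1 was 65.8, 50.4, 32.1 and 30.4 CPM, against 192 and 185 CPM. All 4 pre-HSC-like values were under the endothelial ones for these 3 genes. Within libraries 5 and 6 the log2 ratio was -1.37 and -1.54 for Meg3 (-2.96 over the sums) and -1.41 and -1.69 for Plagl1 (-2.04 over the sums).

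Cdkn1c was 175, 227, 187 and 199 CPM in pre-HSC-like cells of libraries 5 to 8 and 54.5 and 64.5 CPM in endothelium of libraries 5 and 6, 3.04-fold higher (2.75 to 3.36) with no overlap. At 3000 UMIs a cell, 40.5% of pre-HSC-like and 17.1% of endothelial cells held a UMI (71.1% and 34.7% unthinned, at medians of 12290.5 and 7629 UMIs). The G2/M sum of 9 genes was 1340.2 CPM in pre-HSC-like cells, 1671 CPM in venous and 1864 CPM in arterial endothelium.

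The pre-HSC-like cells of libraries 5 and 6 differed from those of libraries 7 and 8. Igf2 was 2303 and 2442 CPM in libraries 5 and 6, and 1239.7 and 946 CPM in libraries 7 and 8. H19 was 2336 and 2367 CPM, and 1300.1 and 1072 CPM. Against endothelium of the same library, Igf2 was higher by 1.01 and 1.09 log2 units and H19 by 1.07 and 1.02, while over all libraries the log2 ratios were 0.14 and 0.23 and neither was called. With libraries 5 and 6 alone, 3 genes were called higher (Igf2, H19 and Cdkn1c) and 3 lower (Mest, Meg3 and Plagl1). Peg3 and Grb10 were no longer called there, with log2 ratios of -0.55 and -0.72, and without the pre-HSC-like cells of libraries 7 and 8 they were -0.70 and -0.81. Peg3 itself was 106, 155, 25.5 and 18.4 CPM in libraries 5 to 8.

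The markers moved with this split. The sum of 14 endothelial markers was 3754 and 3307 CPM in the pre-HSC-like cells of libraries 5 and 6 and 1422 and 1168 CPM in those of libraries 7 and 8, against 6453 CPM in endothelium. Among the 14, Cdh5 was 344, 285, 134 and 124 CPM and Kdr 98.7, 83.9, 32.1 and 28.7 CPM in libraries 5 to 8. Aplnr, 1 marker picked from the 10 of the venous list, had no UMI in any of these libraries. The sum of 16 pre-HSC markers lay between 1488 and 1720.3 CPM in all 4. Endothelium had less Igf2 and H19 than the pre-HSC-like cells of libraries 5 and 6 and more Mest, Meg3 and Peg3. The part of endothelial RNA in the values of libraries 5 and 6 was not tested for any of these genes.

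**Figure D4:**
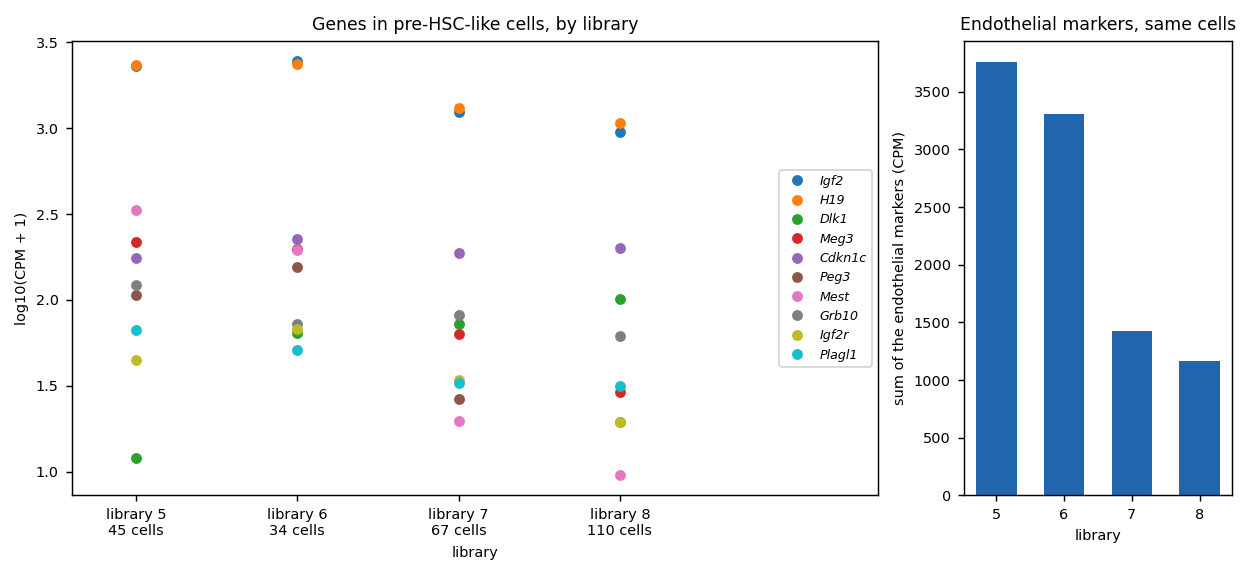
The left panel plots log10(CPM + 1) of each of the 10 genes in pre-HSC-like cells of libraries 5 to 8, and the right panel the sum of 14 endothelial markers (CPM) in the same cells. Mest runs from 333 CPM in library 5 to 8.62 CPM in library 8, Cdkn1c stays between 175 and 227 CPM, and the marker sum is 3754 CPM in library 5 and 1168 CPM in library 8.

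Dlk1 was rare in pre-HSC-like cells and did not follow the other genes. It was 11.0 CPM in library 5 and 63.0, 71.8 and 100.0 CPM in libraries 6 to 8, against 14.1 and 14.0 CPM in endothelium of libraries 5 and 6. The sums differed 4.56-fold (3.84 to 5.41), but the sign differed between libraries 5 and 6 (-0.20 and 1.60), so it was not called; without library 5 it was (1.68). At 3000 UMIs a cell, 12.9% of the pre-HSC-like cells held a Dlk1 UMI (25.6% unthinned), against 3.68% of endothelial cells (6.99% unthinned) and 3.23% of macrophages (6.45%). The macrophages were mostly of libraries 1 to 4. The 10% of pre-HSC-like cells with the most Dlk1 held 75.2% of its UMIs. This was not particular to Dlk1: the same share was 86.9% for Mest, 86.8% for Meg3 and 69.8% for Peg3. At 3000 UMIs, 11.4%, 11.7% and 11.4% of the cells held these genes, so their levels also rest on few cells. The other genes ran from 26.5% of UMIs for Igf2 to 55.8% for Plagl1. The 15 mesenchymal markers summed to 9.97 CPM in pre-HSC-like cells, with 8 of the 15 at 0, and to 28.6 CPM in endothelium.

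Among the lists, 4 of 15 other imprinted genes were lower in pre-HSC-like cells and none higher: Asb4, which encodes a substrate receptor of a ubiquitin ligase (2.64 against 108 CPM), Peg10 (13.5 against 82.4 CPM), Nnat (19.4 against 82.5 CPM) and the tetraspanin gene Cd81 (290 against 728 CPM). Igf1, the other IGF ligand, was the only IGF signalling partner called of 5 (37.8 against 154 CPM). Of 9 imprint upkeep genes only Dnmt3b, which encodes a de novo DNA methylase, was called, and it was higher (154 against 18.7 CPM). Of 17 cell cycle genes only Ccnd1 was called (14.7 against 256 CPM). Over all 3114 genes, 4.88% were called higher and 8.45% lower.

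Between arterial and venous endothelium none of the 9 genes compared was called, and over 3000 genes 0.7% were called higher and 0.3% lower in arterial cells. Igf2 was 1524 and 1446 CPM in arterial cells of libraries 5 and 6 and 1044 and 1041 CPM in venous cells (log2 ratio 0.49), with no overlap. Peg3 was 145 and 123 CPM against 218 and 205 CPM (-0.66), again with no overlap. Mest was 2299 and 2347 CPM against 2286 and 2295 CPM (0.02). The split itself depended on the settings: 4 alternatives set between 26 and 78 arterial cells against a venous class, 2 formed an arterial class (458 and 157 cells) but no venous one, and 1 formed neither. In the 3 alternatives with 26 to 42 arterial cells Igf2 was called higher (1.10 to 1.46), in 2 of them H19 higher (1.08 and 1.41) and in 2 of them Peg3 lower (-2.40 and -2.56). Outside the 10 genes, Nnat (33.7 against 96.7 CPM) and Igf1 (63.8 against 179.9 CPM) were lower in arterial cells.

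Cdkn1c was highest in myotome and interneurons, and these were compared with dermomyotome and neural tube progenitors, a choice made after the levels were seen. In myotome, the first skeletal muscle of the somite, Cdkn1c was 3384, 2951, 2491 and 2162 CPM in libraries 1 to 4, against 231, 169, 127 and 146.5 CPM in dermomyotome, 16.5-fold higher (15.4 to 17.8) with no overlap. Igf2r was 81.5, 47.2, 76.7 and 56.8 CPM against 27.9, 24.4, 16.8 and 21.2 CPM, 2.95-fold higher with no overlap. Igf2 was 1526, 1356, 1358 and 1471 CPM against 695, 730.1, 702 and 702 CPM, a log2 ratio of 1.02 that was under 1 in 5 alternatives (0.88 to 0.99). Dlk1 was 412, 582, 311 and 452 CPM against 1299, 1404, 1357 and 1357 CPM, 3.09-fold lower with no overlap. So 3 of the 10 genes were called higher and 1 lower, against 9.57% higher and 5.54% lower among 3104 genes, with a median log2 ratio of 0.63 against -0.09. Cdkn1c is part of the 3 and of the median. Its level led to this comparison, so its call is no separate result. H19 (0.93) and Meg3 (0.75) were higher in all 4 libraries without reaching the limit.

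Other imprinted genes called between these classes were all higher in myotome (4 of 17): Gatm, an enzyme of creatine synthesis (173 against 2.96 CPM), Ndn (547 against 139.5 CPM), Airn (65.7 against 16.1 CPM) and Kcnq1ot1 (524 against 245 CPM), the antisense RNA of the domain that holds Cdkn1c. Of 19 cell cycle genes 10 were lower and 2 higher, against 5.54% lower and 9.57% higher over all 3104 genes. Cdkn1a (p21), another inhibitor of cyclin-dependent kinases, was 2115 against 46.4 CPM, and Ccnd2, a D-type cyclin, was 202 against 690 CPM.

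In interneurons, Cdkn1c was 1407, 842, 659 and 785 CPM in libraries 1 to 4 and 102, 92.3, 91.0 and 71.3 CPM in neural tube progenitors, 11.0-fold higher (9.90 to 12.3) with no overlap. Mest was 87.4, 47.1, 67.5 and 27.6 CPM against 268, 333, 248 and 312 CPM, 5.28-fold lower with no overlap, and Plagl1 was 3.49-fold lower (26.3 against 91.6 CPM). Thus 1 of 8 genes compared was called higher and 2 lower, where the background was 10.1% higher and 10.6% lower over 3415 genes. The 1 higher gene was Cdkn1c, whose level led to this comparison, so its call is no separate result. Peg3 reached -1.02 over the sums but was 79.5 CPM in interneurons of library 1 against 75.1 CPM in progenitors, so it was not called; without library 1 it was (-1.80), as was Grb10 (-1.04). Of 18 cell cycle genes 15 were lower and 2 higher, with Top2a, a topoisomerase of dividing cells, at 15.3 against 473 CPM. Motor neurons, with a G2/M sum of 185 CPM against 135 CPM in interneurons and 2291 CPM in progenitors, held 177 CPM of Cdkn1c. Low G2/M transcripts and high Cdkn1c therefore did not always occur in the same class, and neural crest and glia held 515 CPM at a G2/M sum of 1623 CPM.

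**Figure D5:**
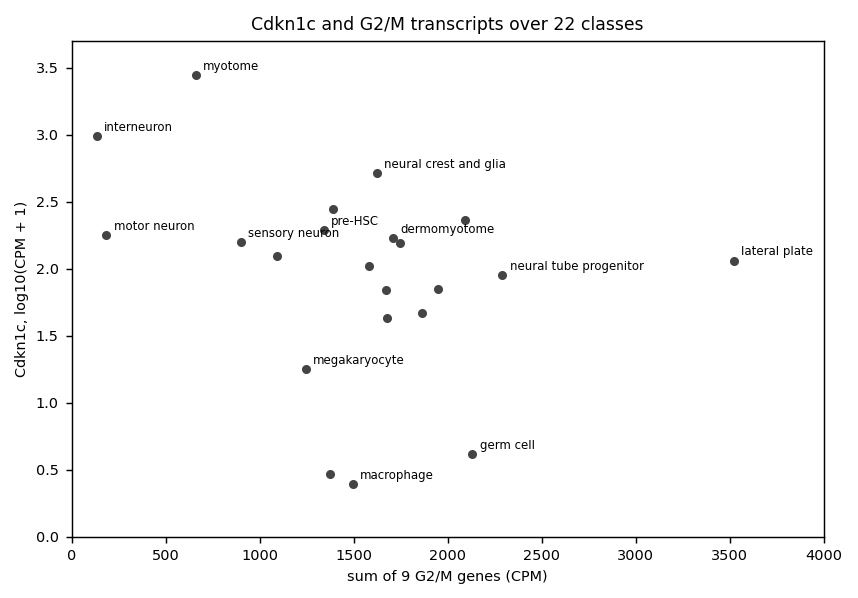
Each point is 1 of 22 classes; the x axis is the summed CPM of 9 G2/M genes and the y axis log10(CPM + 1) of Cdkn1c. Myotome (662 CPM of G2/M genes) and interneurons (135 CPM) hold the most Cdkn1c, motor neurons (185 CPM) hold 177 CPM of it, and macrophages, granulocyte-monocyte progenitors and germ cells hold the least.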

How the data were processed

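The authors deposited 1 matrix of raw UMI counts per gene and cell barcode, with gene and barcode names in tables beside it; it was made with Cell Ranger and mm10, per the submitters' processing notes, and its annotation and strand setting are not given in the sources used here. The gene identifiers and symbols (other text columns) were used as deposited. The 10 genes and all lists were chosen with earlier results of these data known, and the limits for naming clusters were set after the clusters were seen.

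Barcodes needed 1000 UMIs, 500 genes and no more than 10% of UMIs from mitochondrial genes (9383 of 9492 passed), and the 5% of each library most like simulated doublets were removed (467 cells). Clusters (scikit-learn 1.9.0, igraph 0.11.9, leidenalg 0.10.2) used 2000 variable genes without the 10 genes and the lists, 30 components, 15 neighbours and resolution 1. A cluster took the name of a list with at least 3 markers and 40% of its markers at 20 CPM or more and 1 log2 unit above the other clusters. Clusters close to several lists were split again, the pre-HSC list took precedence over the endothelial list at 50% of its markers, and the 2 endothelial clusters were named arterial or venous against each other from at least 3 raised markers, without the 40% limit. In all, 7 of 41 clusters (493 cells) stayed unnamed. Counts were summed per class. A gene was called at a log2((CPM + 10)/(CPM + 10)) of at least 1 in size, given a level of 50 CPM in 1 of the classes and 1 sign in each library with 20 cells of both. The rule for calling genes was tested on simulated class sums without spread between cells, and thinning, the counting interval and TMM were checked on small cases. Doublet removal, clustering and naming were not tested in this way. Named genes are the 10 genes, the genes most like each by Pearson's r over the 22 classes, and up to 4 called genes of each list. Alternatives were other cell filters, no doublet removal, other clusterings, a marker gate per cell, TMM scaling, equal library weights, fewer libraries, and another pseudocount and level minimum.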

Additional observations from a re-analysis of the deposited data

How the results depend on the processing

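There were 20 to 21 alternatives for each of 6 comparisons, and 18 for arterial against venous endothelium. Most results of the 10 genes stayed the same, meaning called in the same direction or not called in either case. This held for 210 of 210 for germ cells against endothelium and 204 of 210 for germ cells against mesenchyme. It held for 201 of 210 for pre-HSC-like cells against endothelium and 197 of 210 for endothelium against mesenchyme. For myotome it was 195 of 200, for interneurons 194 of 200 and for arterial cells 172 of 180. The sign of genes not called was not counted: Peg3 in germ cells against endothelium ran from -0.07 to 0.11. Some alternatives could not change a comparison, as libraries 7 and 8 held 0 germ cells and 0 mesenchymal cells. The count of genes called in arterial against venous endothelium, 0 as reported, was 3 under the stricter cell filter, 2 with 3000 variable genes, 2 at resolution 2 and 1 with the per-cell gate, where Cdkn1c reached 1.31. No value could be had there without doublet removal, with the looser filter or with the described genes in clustering, since the first 2 formed no venous class and the last formed neither class, and libraries 5 and 6 alone held too few myotome-like and interneuron-like cells. The count for interneurons, 3 as reported, was 6 without doublet removal (Igf2 at -1.91, H19 at -1.35 and Peg3 at -1.48 were added) and 5 without library 1. With libraries 5 and 6 alone, which held 23 mesenchymal cells, Igf2r against mesenchyme was -1.19 in endothelium where it was 0.03 over all. The cause of these changes was not tested. Leaving out the pre-HSC-like cells of libraries 7 and 8, and all alternatives for myotome and interneurons, were chosen after seeing the data. Shares of cells with a UMI moved outside their interval in 38 of 40 cases without thinning and in 33 of 40 at 1500 UMIs, as a share of cells depends on depth. No paired analysis was possible because each population has 1 sample. With 1 pooled matrix, the spread between embryos is unknown, and levels under about 20 CPM rest on few UMIs in the small classes.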
